A study of Mus musculus with 8 samples.

Results

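The 10 genes described here are Wnt4, a signal that acts when nephron progenitors become epithelium, and 9 genes of the canonical Wnt response: Ctnnb1, the TCF/LEF factors Lef1, Tcf7, Tcf7l1 and Tcf7l2, and the response genes Axin2, Sp5, Nkd1 and Apcdd1. They were taken by name from a table of 20254 genes, and 10 of 10 were among the 15381 genes abundant enough to be tested. Polyadenylated RNA was sequenced from cells of mouse kidneys at embryonic day 17.5 that had been sorted by their green fluorescence. All libraries carried Six2EGFPcre, a transgene that places a fusion of green fluorescent protein and Cre recombinase under Six2, so the same promoter marked the cells for sorting and drove the deletion of Vhl. The 4 control libraries had the genotype VHLNP+/-, in which 1 allele of Vhl is deleted, and the 4 mutant libraries VHLNP-/-, in which both are. The controls therefore also carried Cre and a deleted allele, and no library without them was analysed here. The title of the series places Vhl, which encodes the ubiquitin ligase subunit that marks hypoxia-inducible factors for degradation, as a control on nephron progenitor differentiation. The labels do not say whether libraries came from separate animals, so p-values describe only how these samples vary, and part of that may be technical.

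Canonical Wnt signals bind Frizzled receptors and the co-receptors Lrp5 and Lrp6 at the cell surface. This stops a complex of Axin, Apc and Gsk3 kinases from destroying beta-catenin, the product of Ctnnb1, which then joins TCF/LEF proteins on DNA and switches on target genes. Several targets feed back on the pathway. In the fetal kidney, Wnt9b from the ureteric bud acts on the nephron progenitors around it, and Wnt4 is then made by the progenitors that form the pretubular aggregate and turn into epithelium.

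Sp5 rose and Tcf7 fell in mutants, and the other 8 genes were not called. A call is an adjusted p under 0.05 in limma across all tested genes. By that rule 8.43% of all tested genes were called, 5.4% higher and 3.03% lower in mutants, against 1 risen and 1 fallen of these 10. The median log2 fold change of the 10 was -0.015, beside -0.007 for all tested genes. The authors' deposited table called 12.5% of the genes it gives an adjusted p, and 3 of these 10, the third being Nkd1. Control and mutant libraries did not overlap for 3 of the 10 (Sp5, Tcf7 and Nkd1), and they did not overlap for 15.3% of all tested genes.

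The RefSeq promoter table (GRCm38.p6) holds 9 of the 10 genes, all but Apcdd1, and of these Sp5 alone had a TCF/LEF motif just before a listed start. The motif was searched as CTTTGAA and CTTTGAT on both strands in the 250 bases before each of 15 listed starts of these 9 genes. A match lay before 1 of the 15 starts, and 7.48% of 32851 windows of the same length in the table hold it. The count is close to that share, so it does not set these genes apart from other promoters. A link between the motif and the rise of Sp5 was not tested. A hypoxia response core was searched as ACGTG and GCGTG on both strands, with overlapping matches counted separately. It lay before 7 of the 15 starts, which belong to 6 genes, and in 38.6% of all windows. The windows of the Ctnnb1 starts overlap and hold the same match, which is counted for each. The windows of the response genes Sp5, Axin2 and Nkd1 are shown because these 3 genes gave different values: higher in mutants, close to level, and lower without a call. They read 5′ to 3′ on the gene's strand, end at the base before the start, and have matches in capitals. They cover chr2:70474673-70474922 (plus strand) for Sp5, chr11:108920099-108920348 (plus strand) for Axin2 and chr8:88527383-88527632 (plus strand) for Nkd1. None of the 3 windows overlaps an exon annotated by GENCODE vM21, and the Nkd1 window lies inside the gene as GENCODE draws it.
Sp5: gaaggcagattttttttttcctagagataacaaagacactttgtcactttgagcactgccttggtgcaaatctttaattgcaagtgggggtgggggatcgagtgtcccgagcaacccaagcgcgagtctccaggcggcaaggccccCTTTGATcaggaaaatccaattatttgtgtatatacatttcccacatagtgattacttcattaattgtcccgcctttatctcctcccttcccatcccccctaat
Axin2: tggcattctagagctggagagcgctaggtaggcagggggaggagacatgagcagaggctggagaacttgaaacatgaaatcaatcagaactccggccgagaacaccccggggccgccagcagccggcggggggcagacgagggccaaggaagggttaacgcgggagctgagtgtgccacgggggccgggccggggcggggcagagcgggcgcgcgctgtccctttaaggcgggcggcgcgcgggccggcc
Nkd1: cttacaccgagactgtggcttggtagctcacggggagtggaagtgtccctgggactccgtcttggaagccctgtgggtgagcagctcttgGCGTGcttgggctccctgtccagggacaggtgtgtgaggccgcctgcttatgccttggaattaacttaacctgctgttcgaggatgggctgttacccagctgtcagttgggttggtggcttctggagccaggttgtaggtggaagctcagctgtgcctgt
The match before Sp5 is CTTTGAT and begins at position -104 from the start. In the Nkd1 window GCGTG begins at position -160. The Axin2 window holds neither motif. A match is a stretch of letters and does not show that a factor binds there.

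Values below are normalised reads, the reads of a gene divided by the size factor of its library. Differences are those of the mutant from the control mean of log2(normalised reads + 1), a scale that shrinks the changes of genes with few reads. The recovered totals were 37.3 to 46.5 M reads (M, megareads) per library. Vhl, the deleted gene, was between 1134 and 1379 in controls and between 285 and 336 in mutants, and the groups did not overlap. Its level fell by 1.94 in log2 units (SE 0.085, limma adjusted p = 4.22e-08), with a two-sided exact permutation p of 0.0286, the smallest that 4 against 4 libraries can give. The progenitor genes Six2 and Cited1 were present in all libraries, at 21553 to 28134 and at 2395 to 3372. Markers of other kidney cells were present too, and Control 3 and Mutant 2 held the least of several of them. In bulk RNA, fewer cells of a type and less RNA per cell cannot be told apart.

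**Figure D1:**
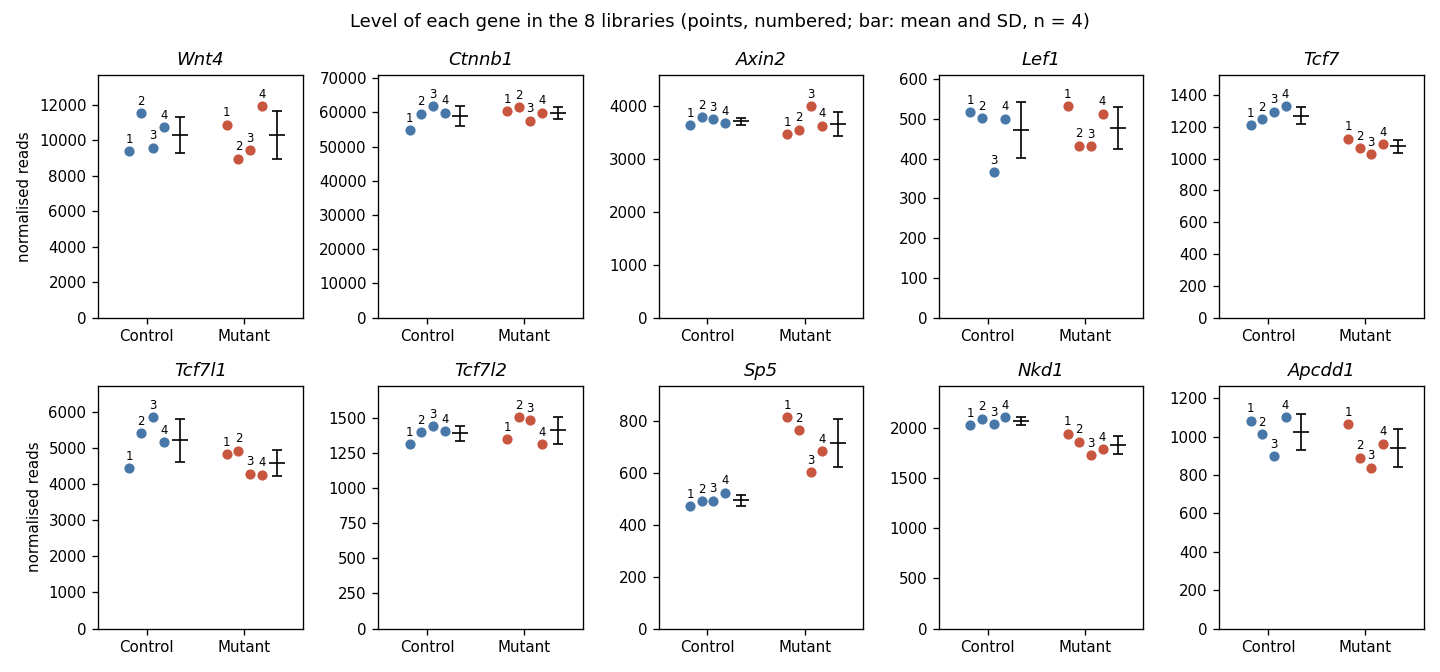
Normalised reads of the 10 genes in the 4 control (blue) and 4 mutant (red) libraries, numbered by replicate, each with the group mean and SD (black); every axis starts at 0. The red points lie above all blue points for Sp5 and below them for Tcf7 and Nkd1, and the groups overlap for the other 7 genes.

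Wnt4, the ligand, lies on chromosome 4 from 137277489 to 137299726 (mm10, plus strand). It was at 9389, 11524, 9573 and 10744 normalised reads in controls 1 to 4 and at 10864, 8959, 9416 and 11892 in mutants 1 to 4. The mutants included both the highest and the lowest library, and the groups overlapped over the whole range of the controls. The control mean was 10308 ± 1009 and the mutant mean 10283 ± 1346 (SD, n = 4 each). The log2 difference was -0.01 (SE 0.10, limma adjusted p = 0.98, two-sided exact permutation p = 0.943). Its 95% interval runs from -0.22 to 0.21, which stands for a mutant level of between 85.8% and 115.4% of the control level. A change as large as that of Sp5 lies outside this interval, and a smaller change is not shown to be absent.

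Ctnnb1, which encodes beta-catenin, was the most abundant of the 10 genes per length of transcript (chromosome 9, 120929216 to 120960507, plus strand). Its levels were 54846, 59596, 61707 and 59910 in controls 1 to 4 and 60273, 61592, 57556 and 59904 in mutants 1 to 4. All mutant libraries lay inside the range of the controls, with a log2 difference of 0.02 (SE 0.06, 95% interval -0.11 to 0.15, limma adjusted p = 0.880). Beta-catenin is regulated mainly by protein breakdown, which transcript levels do not measure. Its exons overlap the opposite-strand gene Ulk4 over 759 of 5192 bases and, on its own strand, the microRNA Mir7090, and the sources used here do not give the strand setting of the counting.

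Tcf7, also known as TCF1, was the TCF/LEF gene that fell. It lies on chromosome 11 from 52252371 to 52283014 (mm10, minus strand), and no exon of another annotated gene overlaps its exons. It was at 1210, 1246, 1296 and 1328 in controls 1 to 4 and at 1126, 1065, 1029 and 1090 in mutants 1 to 4. All mutant libraries lay below all control libraries, and Mutant 1 and Control 1 were the nearest pair. The mean went from 1270 ± 52.1 to 1078 ± 41.0 (SD, n = 4 each), which is 84.9% of the control level (95% interval 77.7 to 92.7%, log2 -0.24, SE 0.06, limma adjusted p = 0.0287). The call held when Control 1 or Mutant 1 was left out and was lost without any 1 of the other 6 libraries, with adjusted p up to 0.0984, while the log2 difference stayed between -0.259 and -0.215. It was also lost with the deposited values as they stand (limma adjusted p = 0.185) and without Control 3 and Mutant 2 together (0.128).

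The other 3 TCF/LEF genes were not called. Tcf7l1, which acts mostly as a repressor where beta-catenin is scarce, was at 4440, 5417, 5854 and 5167 in controls 1 to 4 and 4841, 4930, 4292 and 4264 in mutants 1 to 4. Control 1 lay among the mutants and the other controls lay above all of them. The log2 difference was -0.18 (SE 0.09, 95% interval -0.37 to 0.01, limma adjusted p = 0.230), and without Control 1 it was -0.26 with a limma adjusted p of 0.0466. Tcf7l2, also known as TCF4, was at 1315, 1399, 1443 and 1407 in controls 1 to 4 and at 1350, 1506, 1486 and 1316 in mutants 1 to 4. The ranges overlapped, with a log2 difference of 0.02 (95% interval -0.12 to 0.16, limma adjusted p = 0.884). Lef1 was at 517, 503, 366 and 501 in controls 1 to 4 and at 531, 433, 431 and 514 in mutants 1 to 4. Control 3 was the low library of the controls, and Mutants 2 and 3 were the low ones of the mutants. The log2 difference of Lef1 was 0.02 (SE 0.12, 95% interval -0.25 to 0.29, limma adjusted p = 0.938), and it was -0.09 without Control 3. Lef1 lies on chromosome 3 from 131110471 to 131224356, Tcf7l1 on chromosome 6 from 72626378 to 72789254 and Tcf7l2 on chromosome 19 from 55741820 to 55933654 (mm10). An antisense transcript, Gm43352, overlaps 1208 exonic bases of Lef1, and Gm15401 overlaps 179 of Tcf7l1.

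Within the family, Tcf7l1 made up most of the transcripts. Levels per kb of annotated exon were summed over the 4 genes in each library, and the share of each gene was taken. The share of Tcf7l1 was 65.5 ± 2.31% in controls (SD, n = 4), and it was 65.0 ± 1.45% in mutants (SD, n = 4). Tcf7 held 24.0 ± 1.47% and 22.9 ± 1.12%, Tcf7l2 held 7.85 ± 0.35% and 9.0 ± 0.73%, and Lef1 held 2.68 ± 0.57% and 3.03 ± 0.36% (SD, n = 4 each). The share of Tcf7 overlapped between the groups (22.5 to 25.6% and 21.6 to 24.3%), although its level did not. The share of Tcf7l2 was 7.50 to 8.32% in controls and 8.19 to 9.94% in mutants, and Mutant 1 was the mutant library inside the control range. These shares were not tested.

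**Figure D2:**
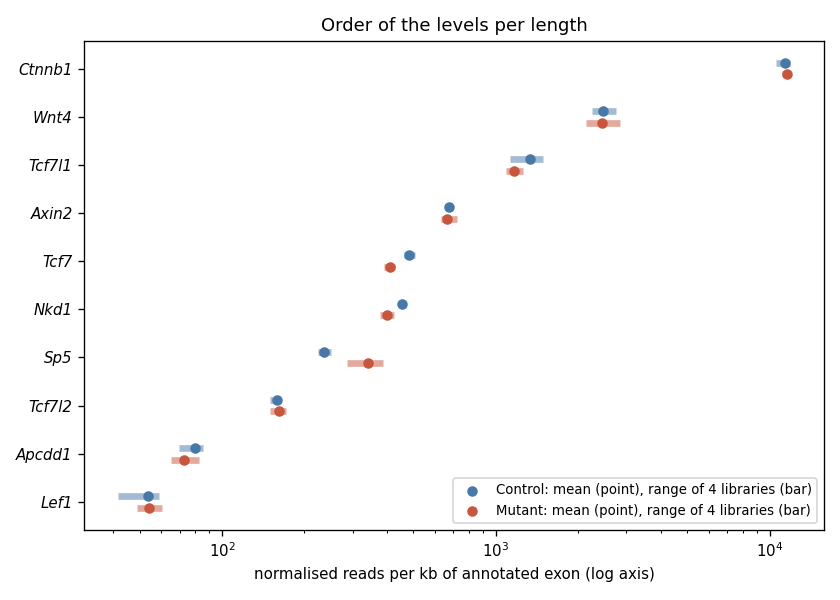
Normalised reads per kb of annotated exon (log axis) of the 10 genes, ordered by the control mean, with the group mean (point) and the range of 4 libraries (bar) for controls (blue) and mutants (red). Ctnnb1 lies highest and Lef1 lowest, and the red bar lies clear to the right of the blue bar for Sp5 and clear to the left for Tcf7 and Nkd1.

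Per kb of annotated exon, the control means ran in the order Ctnnb1 (11366), Wnt4 (2458), Tcf7l1 (1330), Axin2 (673), Tcf7 (484), Nkd1 (453), Sp5 (235), Tcf7l2 (159), Apcdd1 (79.4) and Lef1 (53.7). The control ranges of neighbours in this order overlapped for 1 pair, Tcf7 (461 to 506) and Nkd1 (445 to 462). The other neighbours were apart in every control library. In mutants Sp5 reached 287 to 387 per kb, which overlaps the 379 to 426 of Nkd1. The exonic length counts every annotated exon, used in these cells or not, so genes with many isoforms are placed low.

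Sp5, a zinc finger factor of the Sp family that is induced by beta-catenin in many tissues, rose most of the 10. The gene lies on chromosome 2 from 70474923 to 70477729 (mm10, plus strand) and has 2 exons, and no exon of another annotated gene overlaps them. Its levels were 472, 490, 493 and 524 in controls 1 to 4 and 814, 765, 603 and 683 in mutants 1 to 4. The lowest mutant library, Mutant 3, was above the highest control, and the mutants spread more widely than the controls. The mean rose from 494 ± 21.5 to 716 ± 92.7 (SD, n = 4 each), 1.44-fold with a 95% interval of 1.24 to 1.67 (log2 0.53, SE 0.10, limma adjusted p = 0.00564). It was called in 20 of 20 other settings, including each fit that left out 1 library, and the log2 fold change stayed between 0.461 and 0.605. The largest adjusted p, 0.0466, came without Control 3 and Mutant 2.

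Axin2, the inducible scaffold of the destruction complex and the most used readout of canonical signalling, was not called. It lies on chromosome 11 from 108920349 to 108950783 (mm10, plus strand). Its levels were 3629, 3779, 3752 and 3674 in controls 1 to 4 and 3467, 3547, 3986 and 3624 in mutants 1 to 4. Controls varied little (CV 1.9%), and mutants lay on both sides of them, with Mutant 3 highest. The log2 difference was -0.02 (SE 0.06, limma adjusted p = 0.863), and the 95% interval places mutants between 90.4% and 107.2% of the control level. On the log2 scale this interval ends at 0.10, and that of Sp5 begins at 0.32; the difference between these genes was not itself tested. The antisense transcript Gm11670 overlaps 209 of 5506 exonic bases of Axin2.

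Nkd1, a feedback inhibitor that binds Dishevelled, lay lower in all mutant libraries than in any control, without a call in limma. The gene lies on chromosome 8 from 88521354 to 88594884 (mm10, plus strand). It was at 2027, 2092, 2037 and 2106 in controls 1 to 4 and at 1942, 1864, 1726 and 1789 in mutants 1 to 4. The log2 difference was -0.18 (SE 0.05, 95% interval -0.29 to -0.06, limma adjusted p = 0.0739), or 88.6% of the control level. The authors' deposited table gives -0.17 with an adjusted p of 0.0254. Within the mutants, Sp5 and Nkd1 ranked the libraries alike: Mutant 1 was highest for both, then Mutant 2, Mutant 4 and Mutant 3. Between the groups, however, Sp5 was higher and Nkd1 lower in mutants.

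Apcdd1, a membrane inhibitor that binds Wnt ligands and Lrp5, was at 1083, 1011, 897 and 1101 in controls 1 to 4 and at 1066, 890, 839 and 964 in mutants 1 to 4. The ranges overlapped, and mutants differed by -0.12 in log2 units (SE 0.09, 95% interval -0.32 to 0.07, limma adjusted p = 0.451). Like Lef1, it was lowest in Control 3 among controls and in Mutant 3 and Mutant 2 among mutants.

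**Figure D3:**
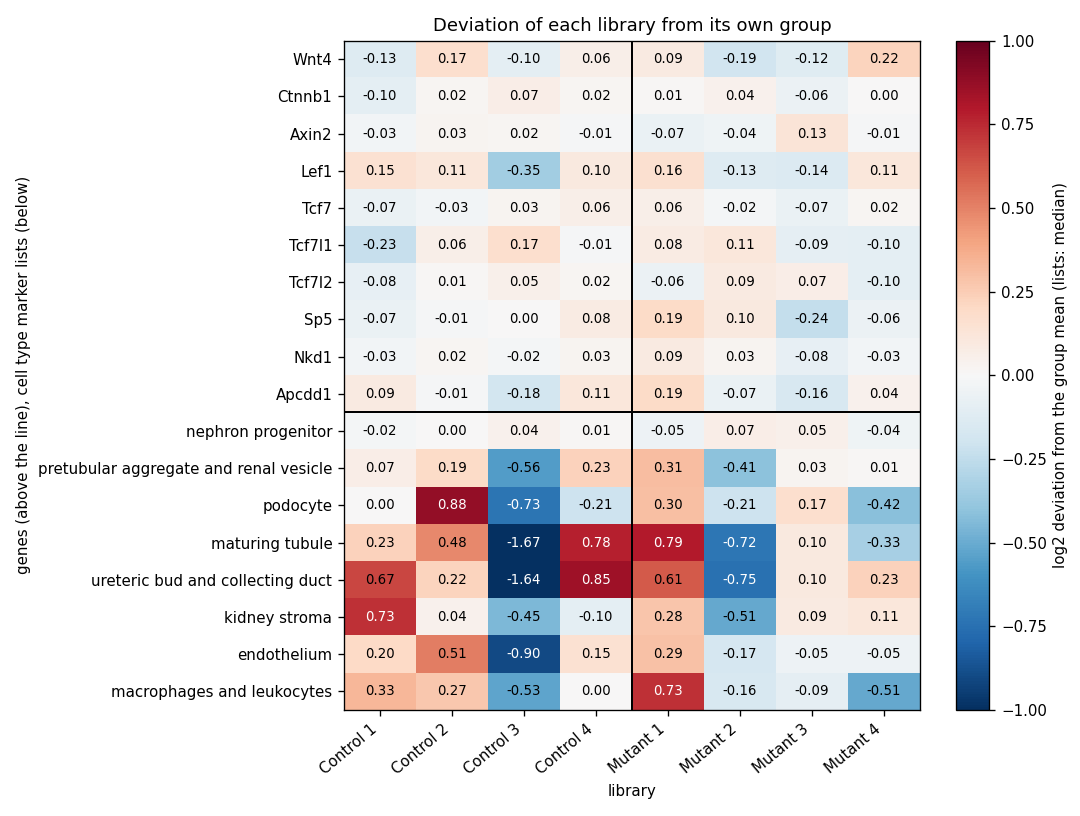
Log2 deviation of each library from the mean of its own group for the 10 genes (above the line) and, as the median over the tested genes, for 8 lists of cell type markers (below); red is above and blue below the group mean, and colours end at -1 and 1. Control 3 and Mutant 2 are blue in 7 of the 8 lists, all but that of nephron progenitors, and of the 10 genes Wnt4, Lef1 and Apcdd1 are also below their group mean in both.

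Markers of other kidney cells varied widely among the libraries of each group. The maturing tubule list (8 of 8 genes measured, 0 called) summed to 2534 to 10282 normalised reads in controls and 4749 to 12174 in mutants, and the ureteric bud and collecting duct list (10 of 10, 0 called) to 2017 to 4804 and 2929 to 5432. Control 3 had the lowest sum among controls and Mutant 2 among mutants in both lists. Their median deviations from the group mean were -1.67 and -0.72 for the tubule list. The pretubular aggregate and renal vesicle list, the stage that makes Wnt4, summed to 21255 to 26992 in controls and 20623 to 27569 in mutants. Of its 14 genes 0 rose and 1 fell, and their median log2 fold change was -0.14. The sum follows the abundant genes, as Ccnd1 alone was at 9312 to 11347 in controls. Deviations of that list were -0.56 in Control 3 and -0.41 in Mutant 2, beside -0.35 and -0.13 for Lef1, -0.10 and -0.19 for Wnt4, and -0.18 and -0.07 for Apcdd1. The part of these cells in the levels of the 3 genes was not tested.

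The remaining lists overlapped between the groups in their sums. Stroma summed to 26846 to 56599 in controls and 22780 to 45419 in mutants (10 genes, 0 called), endothelium to 1363 to 2545 and 1843 to 2441 (9 genes, Plvap risen), and leukocytes to 569 to 1100 and 632 to 1049 (9 genes, 0 called). Podocyte markers summed to 10351 to 19484 and 8526 to 12547 (8 genes, Plce1 risen and 1 fallen). Nephron progenitor genes summed to 123675 to 134850 and 119490 to 129393 (12 genes, Gdnf risen and Meox1, Osr1 and Tmem100 fallen). The called markers that are named were picked after their values were seen. In these 8 lists 0 markers were at 0 in any library. For Sp5, the difference without Control 3 and Mutant 2 was 0.49, beside 0.53 with all libraries. Wnt9b, the inductive ligand of the ureteric bud, named after its values were seen, was at 106, 50.1, 3.13 and 153 in controls 1 to 4 and at 135, 38.02, 62.4 and 97.4 in mutants 1 to 4, so it was lowest in the same 2 libraries.

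Among 98 other tested genes of the Wnt pathway, sorted into 9 lists by role (a few genes stand in more than 1 list), 2 rose and 2 fell, which is 4.08% against the 8.43% of all tested genes. Their median log2 fold change was -0.03. Control and mutant libraries did not overlap for 11 of the 98, a smaller share than the 15.3% of all tested genes. The share of all tested genes with an unadjusted p under 0.05 was not worked out. It is larger than the 8.43% called, because genes with an unadjusted p just under 0.05 had far larger adjusted values. Csnk1d, for instance, had a limma p of 0.048 and an adjusted p of 0.21. The 8.43% is therefore not the share to set beside counts by unadjusted p in the lists below. Without the right share, those counts cannot be read as a pattern.

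**Figure D4:**
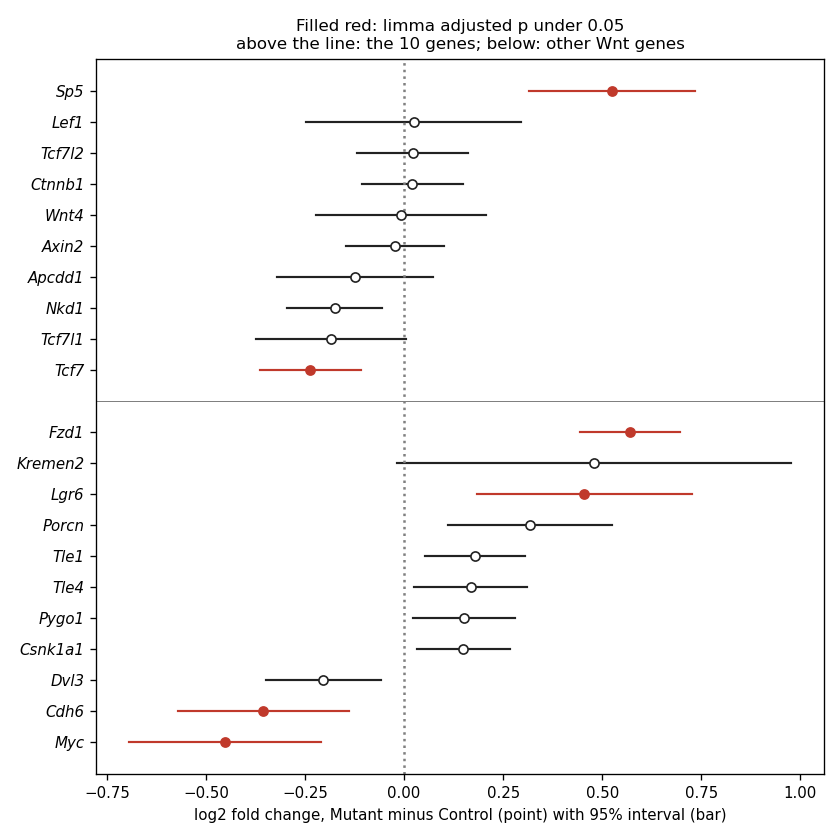
Log2 fold change (mutant minus control, point) with its 95% interval (bar) for the 10 genes (above the line) and for other Wnt genes that were called or whose groups did not overlap (below); filled red marks a limma adjusted p under 0.05. Sp5 and Fzd1 have the largest called rises, at 0.53 and 0.57, and the other called genes shown are Lgr6, Cdh6, Myc and Tcf7.

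Of the receptors and co-receptors, Fzd1 rose and the other 15 tested genes were not called (median log2 fold change -0.05). Fzd1 encodes a Frizzled receptor. It was at 3306, 3181, 3028 and 3105 in controls 1 to 4 and at 5109, 4537, 4598 and 4510 in mutants 1 to 4, with a wide gap between the groups. The rise was 1.49-fold (log2 0.57, SE 0.06, limma adjusted p = 8.41e-05), and it was called in 20 of 20 other settings. Fzd4 and Fzd9 came next, with log2 differences of -0.17 and -0.43 (limma adjusted p = 0.195 and 0.235).

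Ligands gave 0 calls among 11 tested of 19 listed genes (Wnt4 included) in limma and in limma-voom, with 1 gene at an unadjusted p under 0.05 and 1 called in the authors' deposited table. In both cases it was Wnt11, a ligand that acts mainly outside the beta-catenin route and is made at ureteric tips. It was at 325 to 431 in controls and 422 to 638 in mutants, which overlap, with a log2 difference of 0.41 (SE 0.13, limma adjusted p = 0.0851). Wnt2, at no more than 21.4 normalised reads in any library, and Wnt9a had limma adjusted p of 0.313 and 0.569. Of 3 genes of Wnt secretion and release, 0 were called by limma or limma-voom and 1 had an unadjusted p under 0.05. This was Porcn, the acyltransferase that lipidates Wnt proteins. It was at 261 to 321 in controls and 353 to 383 in mutants without overlap (log2 0.32, limma adjusted p = 0.0634), and it is called in the authors' deposited table (adjusted p = 0.0341). Notum, a deacylase that inactivates Wnts, and Wls, their carrier to the surface, differed by -0.07 and 0.01.

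In the R-spondin arm, which raises receptor levels at the surface, Lgr6 rose and 6 of 7 tested genes were not called. Lgr6, an R-spondin receptor, was at 169 to 226 in controls and 239 to 301 in mutants without overlap, a 1.37-fold rise (limma adjusted p = 0.0446). That call held in 1 of 8 fits that left out a library, the fit without Mutant 3, and was lost without any of the other 7 (adjusted p up to 0.136). It was lost with limma-voom too (0.0619). The ligands Rspo1 and Rspo3 lay at 89.2% and 85.6% of the control level (limma adjusted p = 0.136 and 0.156).

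Among 13 secreted and surface antagonists 0 were called by limma or limma-voom. Unadjusted p-values were under 0.05 for 1 gene with a higher and 3 with a lower mutant mean, and of these Sfrp2 is called in the authors' deposited table. Sfrp2 and Frzb are secreted Frizzled-related proteins. Sfrp2 differed by -0.31 and Frzb by 0.22 on the log2 scale (limma adjusted p = 0.0828 and 0.133), and Draxin by -0.29 (0.0978). The third with a lower mean was Wif1, a secreted Wnt-binding inhibitor (log2 -0.84, limma adjusted p = 0.165), which is named with its values in view. Kremen2, a receptor for Dkk proteins, was at 17 to 25 and 25 to 34 reads without overlap, near the minimum for testing (limma adjusted p = 0.233).

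The 16 transducers and parts of the destruction complex gave 0 calls in limma and in limma-voom, with 1 higher and 3 lower at an unadjusted p under 0.05. Dvl3, a Dishevelled protein that relays the receptor signal, was at 2776 to 3226 in controls and 2336 to 2690 in mutants (log2 -0.20, limma adjusted p = 0.0851). Csnk1a1, the kinase that primes beta-catenin for destruction, was at 14705 to 15941 and 16325 to 17418 (log2 0.15, limma adjusted p = 0.119). Neither pair of ranges overlaps, and both genes are called in the authors' deposited table (adjusted p = 0.0380 and 0.0198). Apc2 differed by -0.33 (limma adjusted p = 0.156) and Csnk1d, chosen with its values in view, by -0.12.

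The nuclear co-factors and TCF repressors gave 0 calls among 15 tested genes in limma and in limma-voom. By an unadjusted p under 0.05, for which the share of all tested genes was not worked out, 3 were higher and 0 lower. They were the Groucho-type repressors Tle1 and Tle4, which bind TCF/LEF proteins in place of beta-catenin, and Pygo1, a co-activator. Their log2 differences were 0.18, 0.17 and 0.15 (limma adjusted p = 0.0803, 0.149 and 0.147), and each of them had no overlap between the groups. Tle1 is called in the authors' deposited table (adjusted p = 0.0227).

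Of 13 other genes known as canonical targets, Myc fell and 12 were not called. Myc, a growth regulator with many inputs besides Wnt, was at 3278, 4314, 4216 and 4381 in controls 1 to 4 and 3251, 2993, 3116 and 2462 in mutants 1 to 4. Control 1 was only just above the highest mutant. The log2 difference was -0.45 (SE 0.11, limma adjusted p = 0.0298). Of the 8 fits that left out a library, those without Control 1 and without Mutant 1 kept the call, and the other 6 lost it (adjusted p up to 0.0882). The fit without Control 3 and Mutant 2 lost it too (0.132). Ccnd1 and Bambi differed by -0.17 and -0.20 (limma adjusted p = 0.254 and 0.416), and Ccnd1 also stands in the renal vesicle list.

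Among 10 membrane partners of the catenins, the cadherin Cdh6 fell by 0.35 (limma adjusted p = 0.0483), from 1316 to 1538 in controls to 949 to 1293 in mutants. The call held without Control 3, Mutant 1 or Mutant 3 and was lost without any 1 of the other 5 libraries (adjusted p up to 0.151), and with limma-voom (0.0507). Ctnna1, the alpha-catenin that ties beta-catenin to actin, and Cdh4 differed by -0.17 and -0.14 (limma adjusted p = 0.156 and 0.295).

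**Figure D5:**
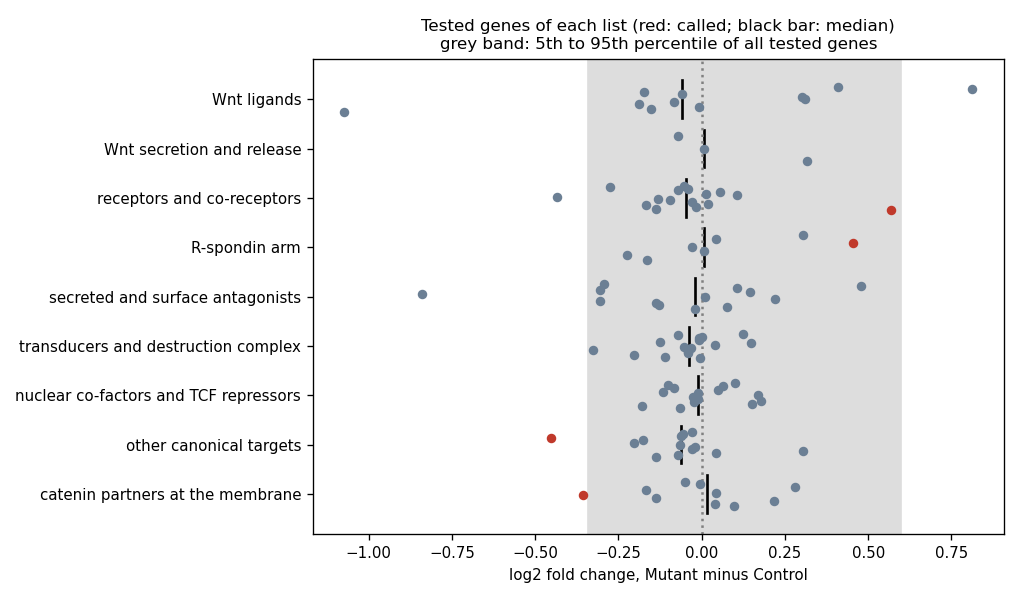
Log2 fold change of each tested gene in the 9 lists of Wnt pathway genes (red, called by limma; black bar, median), with the 5th to 95th percentile of all tested genes as a grey band (-0.34 to 0.60). All list medians lie between -0.06 and 0.02, and 4 genes are red: Fzd1, Lgr6, Myc and Cdh6.

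The genes most like Wnt4 in how they varied from library to library, after removal of the group means, were Med30 (Pearson r = 0.972), Boc (0.969), 1500009L16Rik (0.963), Tmco1 (0.962) and Odc1 (0.959). For Lef1 they included Svopl (0.986), Mppe1 (0.981), Acot9 (0.970) and Stx3 (0.968). For Axin2 they were Per2 (0.948), Dok2 (0.940), Socs4 (0.936), Mzf1 (0.928) and Trpm6 (0.924). The likeness is over 8 libraries and was ranked among 12210 genes with a mean of at least 100 normalised reads, so these are the highest of many values and are given as a description. The points share the library and its size factor. The 4 genes named for Lef1 were each lowest, among controls, in Control 3. Per2 and Trpm6 rose in mutants (limma adjusted p = 6.82e-04 and 0.00105), whereas Axin2 did not, since the likeness ignores the difference between the groups.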

How the data were processed

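Members and gene lists were chosen with earlier results of these data known, and the groups come from the labels. Per the labels' protocols, a stranded kit was used on polyadenylated RNA, and the submitters' processing notes name STAR 2.5.3a, DESeq2 1.18.1 and mm10. The sources used here do not give the read counter, annotation or strand setting. The deposited per-library signal is reads divided by size factors, and the values show that the authors' table was divided a second time by the 8 factors (0.872 to 1.078), recycled down the genes, and rounded. Whole reads that rebuild the deposited mean within 1e-09 were found for 20254 of 20254 genes, and values divided once were used. The authors' deposited log2 fold changes and adjusted p-values were set beside these as an alternative, and their deposited test score was left out.

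Genes reaching 10 normalised reads in 4 or more libraries were tested with limma 3.58.1 (R 4.3.3) on log2(value + 1), with a variance trend, robust moderation, no covariate and Benjamini-Hochberg adjustment over 15381 genes. The fit was checked on simulated data for 15400 genes: of 50 genes changed 1.3-fold it called 22, of 50 changed 1.5-fold 39, and 10 unchanged genes were called. The simulation gave every gene the same dispersion (its variance beyond counting noise) and the libraries no shared shifts. The real genes differ in spread, so these counts are not the detection or error rates of the real comparison. Each group had 4 libraries, at 37.3 to 46.5 M reads (megareads) each, and the standard errors come from the spread between them. Genes named are Vhl, the 10 members, in each pathway list every called gene (or the 3 with the smallest adjusted p) and those whose groups do not overlap, the 5 genes most like Wnt4, Lef1 and Axin2, and markers; some results that the rule names are not reported here. Exon lengths and overlaps come from GENCODE vM21 on the same build.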

Additional observations from a re-analysis of the deposited data

Results flagged for a closer look

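Outlying libraries were looked for in Vhl, the members and the pathway genes that the naming rule gives. The genes named for their likeness, the cell type markers, Wif1, Csnk1d and Wnt9b were not checked. The gap of a library to the next was taken as a share of its group's whole range. Of 78 groups of 4 libraries, 5 had a share that passed Dixon's 95% critical value, and chance gives about 1 in 20 groups. Lef1 was at 366 in Control 3, beside 501 to 517 in the other controls. Fzd1 was at 5109 in Mutant 1, beside 4510 to 4598. Draxin was at 309.6 in Control 1, beside 377 to 387, Myc was at 3278 in the same library, beside 4216 to 4381, and Pygo1 was at 1054 in Control 2, beside 1116 to 1121.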

How the results depend on the processing

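Sp5 and Fzd1 were called in 20 of 20 other settings, and Vhl in 20 of 20. The number of genes called, 1297 in the full fit, was 698 with the deposited values as they stand, 2996 with library quality weights, 766 with the replicate block and 764 without Control 3 and Mutant 2, and 774 (without Mutant 4) to 1565 (without Control 1) when 1 library was left out. It was 816 without Control 4. The number of the 10 genes called, 2 in the full fit, was 1 (Sp5) with the deposited values as they stand, with the replicate block and without Control 3 and Mutant 2, and 4 with quality weights (with Tcf7l1 and Nkd1), and it was 1 to 3 when 1 library was left out. Same-numbered control and mutant libraries did not clearly deviate together (r = 0.213, -0.143, -0.144 and 0.063 over genes, numbers 1 to 4). No control library correlated best with the mutant of its own number, and of the mutants only Mutant 4 did with its control. The labels do not say what libraries of the same number share, so what is joined by the block is not known. With it Tcf7 had an adjusted p of 0.123, Sp5 0.0219, Fzd1 0.000812, Lgr6 0.121, Myc 0.0888 and Cdh6 0.0991.

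Differences near 0 changed sign. For Wnt4 the log2 difference was 0.019 with quality weights and 0.022 without Control 3 and Mutant 2, and -0.081 to 0.056 with 1 library left out. For Lef1 it was -0.049 without that pair and -0.093 to 0.072 with 1 left out, for Tcf7l2 -0.025 with quality weights and -0.009 to 0.056, for Ctnnb1 -0.014 to 0.043 and for Axin2 -0.065 to 0.003. None of these had an adjusted p under 0.05. List counts differed in the authors' deposited table for ligands (1), secretion (1), antagonists (1), transducers (2) and nuclear co-factors (1), each against 0 in limma. Without a filter, with limma-voom and without Control 3 and Mutant 2, the R-spondin and catenin partner lists had 0 against 1, and the last of these left 0 other targets. With 1 library left out, lists had 0 to 1 called (secretion, R-spondin, nuclear co-factors, other targets, catenin partners), 0 to 2 (antagonists) or 1 to 2 (receptors). The cause of these changes was not tested. A count model on the recovered reads was not run.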
